A study of Mus musculus with 9 samples.

Results

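Glycolysis enzymes and glucose transporters were followed as a set of 10 genes in single-cell RNA data from mice with an arthritis model and from healthy mice. The members were taken by name from the deposited gene rows, and all 10 of 10 were found among the 23499 genes of the blood table and of the joint table. They are the transporters Slc2a1 and Slc2a3, the enzymes Hk2, Aldoa, Tpi1, Gapdh, Pgk1, Pgam1 and Pkm, and the lactate dehydrogenase subunit Ldha. Blood cells, listed in the labels as PBMC (peripheral blood mononuclear cells) and as blood, came from 9 female mice of the 129SvE strain and were read by Seq-Well, which catches cells with barcoded beads in small wells. The Sick group held 5 mice labelled with rheumatoid arthritis, namely mouse 1 and mouse 4 at disease stage 1.5, mouse 3 at stage 2, mouse 5 at stage 1.5 to 2 and mouse 6 at stage 2 to 2.5. The Healthy group held 4 mice of the same strain and sex at disease stage 0. No transgene or drug is named in the labels for either group.

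Glycolysis splits glucose into pyruvate and yields ATP without oxygen. Glucose enters through facilitative transporters, a hexokinase traps it as glucose 6-phosphate, and lactate dehydrogenase returns NAD+ by turning pyruvate into lactate. Neutrophils hold few mitochondria and are known to draw most of their ATP from glycolysis, and macrophages and lymphocytes increase glycolysis when activated. HIF-1, a transcription factor that accumulates when oxygen is low, is known to activate most of the genes described here.

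The blood table held 4310 columns, each named with its mouse and a cell class, and the joint data had 8423 columns. How the columns were made is not known here, and many had the same content. In all, 1313 blood columns were identical to another one, 59 of 302 Healthy columns matched a Sick column exactly, and 719 blood columns were identical to a joint column. The mice are thus less independent than the tests assume. Levels are given as SPM, the signal of a gene per 1000000 of the total. Total signal ranged from 8350920 to 13557201 in Sick mice and from 330950 to 2053973 in Healthy mice, so depth and group cannot be told apart. Hemoglobin genes took 0.630% to 50.0% of the signal in Sick mice and 1.68% to 55.0% in Healthy mice. The granulocyte class held 249 to 489 columns per Sick mouse and 5 to 20 per Healthy mouse. Pooled over all mice, its name went with its content, since all 12 of 12 neutrophil markers (S100a8 and Ltf among them) were highest in it, as all 8 of 8 B cell markers were in the B class. Most of the pooled granulocyte columns came from Sick mice, so this check says little about the Healthy ones. The class that the submitters call foxP3 T cells did not go with its name, because 0 of 8 T cell markers were highest in it while 4 of 6 NK cell markers and 5 of 9 erythroid markers were, and it is named below only as labelled.

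The promoters of 4 enzymes are shown because their transcripts carry most of what follows, with the core of the HIF-1 binding motif, ACGTG, in capitals wherever it occurs on either strand (ACGTG, or CACGT where it lies on the other strand). The windows run from 250 bases before to 50 bases after a gene start and come from RefSeq on build GRCm38.p6, namely Hk2 on chr6:82774405-82774704 (minus strand), Aldoa on chr7:126799205-126799504 (minus strand), Pkm on chr9:59656977-59657276 (plus strand) and Ldha on chr7:46845554-46845853 (plus strand).
Hk2: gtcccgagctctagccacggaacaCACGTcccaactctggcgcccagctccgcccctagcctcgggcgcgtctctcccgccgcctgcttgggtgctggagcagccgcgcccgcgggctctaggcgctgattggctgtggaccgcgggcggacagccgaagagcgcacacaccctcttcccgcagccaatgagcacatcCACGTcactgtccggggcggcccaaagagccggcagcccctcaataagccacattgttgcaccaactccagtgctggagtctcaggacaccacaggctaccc
Aldoa: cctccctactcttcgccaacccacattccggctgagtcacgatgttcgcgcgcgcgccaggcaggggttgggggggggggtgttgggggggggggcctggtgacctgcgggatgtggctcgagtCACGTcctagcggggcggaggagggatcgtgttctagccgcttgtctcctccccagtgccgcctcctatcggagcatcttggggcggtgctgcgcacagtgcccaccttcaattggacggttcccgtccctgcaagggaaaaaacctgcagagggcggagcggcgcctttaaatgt
Pkm: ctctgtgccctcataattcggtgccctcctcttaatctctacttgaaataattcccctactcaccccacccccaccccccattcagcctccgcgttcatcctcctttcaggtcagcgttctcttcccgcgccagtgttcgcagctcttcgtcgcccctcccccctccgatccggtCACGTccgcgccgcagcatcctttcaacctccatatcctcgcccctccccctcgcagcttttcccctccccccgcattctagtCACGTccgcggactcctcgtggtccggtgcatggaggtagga
Ldha: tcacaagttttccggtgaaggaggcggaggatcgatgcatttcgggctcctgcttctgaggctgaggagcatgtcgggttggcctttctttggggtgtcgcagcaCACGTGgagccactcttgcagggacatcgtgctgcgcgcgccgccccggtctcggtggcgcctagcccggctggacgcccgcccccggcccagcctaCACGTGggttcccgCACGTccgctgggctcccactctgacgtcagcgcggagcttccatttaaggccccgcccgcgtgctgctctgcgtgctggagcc
In these letters the motif stands at 2 places in the Hk2 window, 1 in the Aldoa window, 2 in the Pkm window and 3 in the Ldha window, where 2 of the 3 read CACGTG, which carries it on both strands. RefSeq gave 13 windows for 9 of the 10 members, Slc2a3 having none here. A match was found in 9 of the 13 windows (69.2%) and in 8 of the 9 members, Tpi1 being the exception, against 19.6% of all 32851 windows and 21.8% of all genes with a window. Aldoa, Pkm and Ldha have more than 1 window each, of which those without a match are not shown, and both matching Aldoa windows overlap and share their match. A match is a stretch of letters and no measure of binding.

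Over all blood columns the 6 members that could be tested were higher in Sick mice in sign, but none passed the test. Each mouse's columns were summed, scaled by TMM (a scaling that trims extreme genes) and compared on the log2(SPM + 1) scale with limma, using a Benjamini-Hochberg adjusted p under 0.05 over all 8459 genes tested. Genes entered if they reached 10 SPM in at least 4 mice, which 6 members did. Of those 6, 0 passed, against 0.0473% of all genes tested, and 3 had an unadjusted p under 0.05, against 13.4%. All 6 differences were above 0, against 69.3% of all genes, and their median was 0.59 on the log2 scale, against 0.26 for all genes, with Ldha turning to -0.0050 when each mouse was thinned to the smallest total. The median of all genes itself moved with the scaling, to 0.15 with median-of-ratios size factors, 0.31 with the total alone and 0.07 after thinning. The members tested stood 0.33, 0.33, 0.28 and 0.56 above it in that order, TMM first. They were not the same set, since 6, 6, 7 and 7 members were tested. Of these, 6, 6, 6 and 5 were above 0, against 69.3%, 61.7%, 73.2% and 54.4% of all genes. Slc2a1, Gapdh, Pgk1 and Pgam1 did not pass the filter on low values. Gene levels below are not compared with each other, since SPM is not corrected for length.

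Hexokinase 2 (Hk2, chr6:82725025-82774454), the inducible hexokinase that commits glucose to the cell, showed the widest separation. Hk2 stood at 38.0, 28.4, 34.7, 42.6 and 22.9 SPM (TMM-scaled) in Sick mice 1, 3, 4, 5 and 6, and at 16.4, 6.16, 4.21 and 6.69 SPM in Healthy mice 1 to 4. Every Sick mouse lay above every Healthy mouse, which held for 1 of the 6 tested members and for 3.64% of all genes tested. Hk2 averaged 33.3 ± 7.77 SPM in Sick mice and 8.37 ± 5.48 SPM in Healthy mice (SD, n = 5 and 4), a fitted log2 difference of 2.00 ± 0.38 (SE) with limma adjusted p = 0.0900. The Healthy values rest on a summed signal of 7, 16, 1 and 3. Only Healthy mouse 1 reached the minimum of the filter on low values, so the 5 Sick mice alone carried Hk2 through it. Hk2 passed in 2 of 21 alternatives, with limma adjusted p from 0.0438 to 0.456 over all of them. Without Sick mouse 6 the adjusted p was 0.0438, and with each mouse's hemoglobin share as a covariate it was 0.0440. In these fits 0.789% and 0.863% of all genes were past the threshold. Granulocyte columns made up 31.4% to 86.7% of the columns in Sick mice and 2.49% to 44.4% in Healthy mice. With that share as a covariate Hk2 did not pass, with 0.106% of all genes past the threshold. The summed level of the 12 neutrophil markers also separated the groups, at 21767 to 159277 SPM in Sick mice against 5598 to 10826 SPM in Healthy mice. The part of that marker level in the Hk2 difference over all columns was not tested. In summed columns of mixed blood, fewer cells of a type and less RNA per cell cannot be told apart.

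Aldolase A (Aldoa, chr7:126795234-126800751), which splits fructose 1,6-bisphosphate into the pair of triose phosphates, followed. Aldoa stood at 220, 197, 163, 259 and 127 SPM in Sick mice 1, 3, 4, 5 and 6, and at 139, 113, 67.4 and 89.2 SPM in Healthy mice 1 to 4. Sick mouse 6 lay below Healthy mouse 1, so the groups overlapped, and the log2 difference of 0.92 ± 0.27 did not pass (limma adjusted p = 0.227). Reads of Aldoa can be split with near-identical copies: the rows Aldoart1 and Aldoart2 held 432 and 207 of blood signal beside 11349 for Aldoa.

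Pyruvate kinase (Pkm, chr9:59656368-59679375), the last ATP-making step, stood at 116, 93.7, 83.4, 104 and 62.6 SPM in Sick mice and at 58.7, 66.2, 54.8 and 66.9 SPM in Healthy mice. Only Sick mouse 6 lay within the Healthy range, and the log2 difference was 0.54 ± 0.22 (limma adjusted p = 0.343). Its 2 splice forms, M1 and M2, share 1 row and were not told apart.

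The other tested members overlapped widely between the groups. Slc2a3 (GLUT3, a high-affinity glucose transporter, chr6:122727809-122801640) averaged 47.0 ± 17.4 SPM in Sick mice and 30.4 ± 14.1 SPM in Healthy mice, a log2 difference of 0.64 ± 0.34 (limma adjusted p = 0.406). Triose phosphate isomerase (Tpi1, chr6:124810586-124814296), which interconverts the triose phosphates, averaged 38.0 ± 11.0 SPM in Sick mice and 26.3 ± 7.25 SPM in Healthy mice (0.50 ± 0.31, limma adjusted p = 0.448). Ldha (chr7:46841475-46855627) averaged 91.6 ± 24.8 SPM in Sick mice and 77.5 ± 20.2 SPM in Healthy mice (0.24 ± 0.27, limma adjusted p = 0.661). The 95% interval for Ldha ran from -0.35 to 0.82, so a log2 difference of 1 lay outside it.

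The 4 members below the filter had little signal. Slc2a1 (GLUT1, the basal glucose transporter, chr4:119108711-119137983) ranged from 5.97 to 16.7 SPM in Sick mice and from 6.69 to 21.1 SPM in Healthy mice. Gapdh (chr6:125161715-125166467), the NADH-making step and a usual reference gene, reached 419 of blood signal in all 4310 columns and ranged from 4.94 to 8.56 SPM in Sick mice and from 2.35 to 10.8 SPM in Healthy mice. Phosphoglycerate kinase (Pgk1, chrX:106187100-106203699), the first ATP-making step, averaged 7.44 ± 2.06 SPM in Sick mice and 2.95 ± 2.28 SPM in Healthy mice, with Healthy mouse 3 at 0. Phosphoglycerate mutase (Pgam1, chr19:41911923-41918660) ranged from 4.50 to 11.2 SPM in Sick mice and from 0 to 6.69 SPM in Healthy mice. The groups overlapped for each of the 4. Gapdh, Pgk1 and Pgam1 have near-identical copies elsewhere in the genome, to which reads can be lost, so their low levels are uncertain. Reads began at the polyA tail and were 50 bases long, and the coordinates given are from GENCODE M21 on GRCm38.

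**Figure D1:**
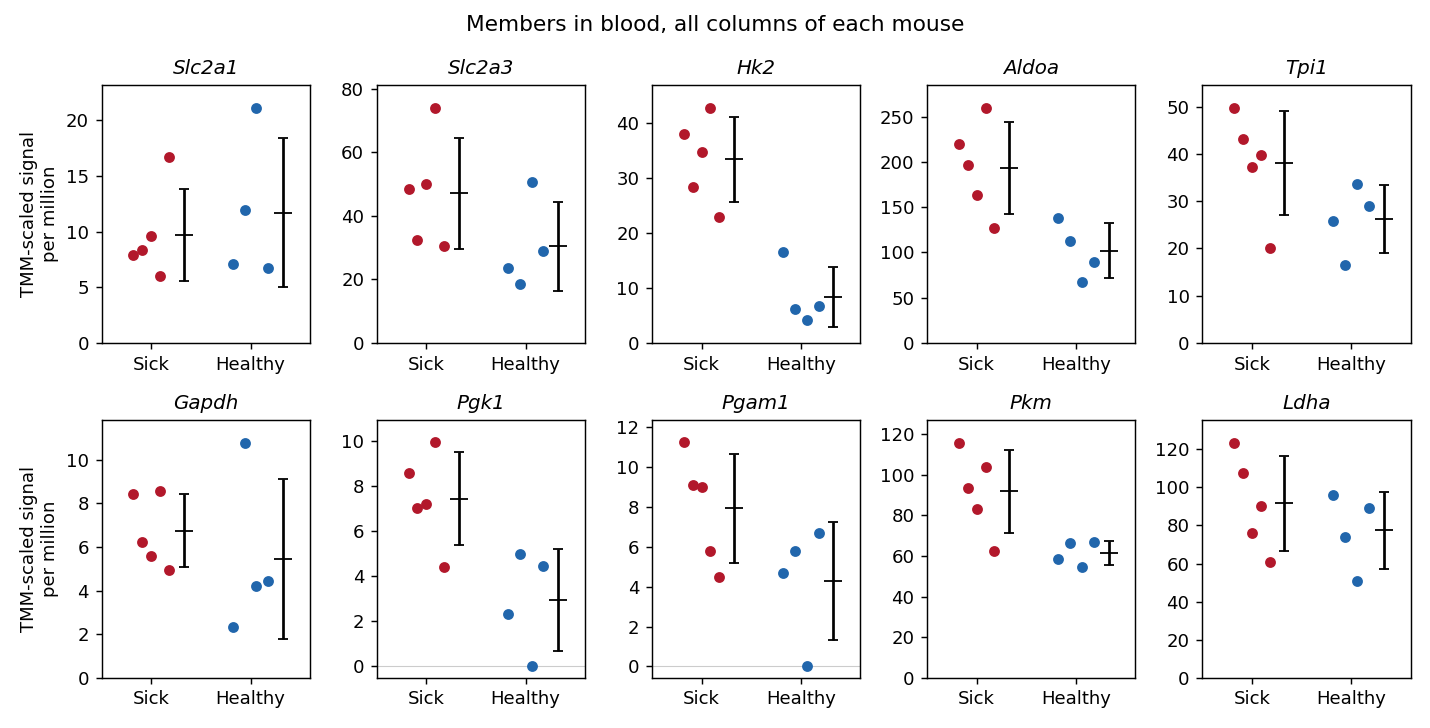
TMM-scaled signal per 1000000 (SPM) of each member over all blood columns, 1 point per mouse (5 Sick, red; 4 Healthy, blue), with mean ± SD as a black bar. The Hk2 points of Sick mice (22.9 to 42.6) lie above those of Healthy mice (4.21 to 16.4), and the other panels overlap.

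Within the granulocyte class, compared in the same way over 7935 genes, Aldoa, Pkm and Hk2 were the tested members that separated the groups, where over all columns Hk2 alone had done so, and none passed the threshold. Of 7 tested members 0 passed, against 0.655% of all genes tested, and 3 had an unadjusted p under 0.05, against 21.6%. All 7 differences were above 0, against 77.3% of genes, with a median of 0.80 against 0.53 for all genes on the log2 scale, but thinning each mouse to the smallest granulocyte total turned Slc2a1, Slc2a3 and Tpi1 below 0. After thinning, 5 of the 9 members then tested were above 0. Of all genes 53.3% were above 0 after thinning and their median was 0.10, against 0.37 with median-of-ratios size factors and 0.45 with the total alone. The Healthy values here rest on 649010 of total signal, against 26484237 in Sick mice.

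Aldoa in granulocytes stood at 307, 337, 204, 244 and 166 SPM (TMM-scaled) in Sick mice 1, 3, 4, 5 and 6, and at 121, 134, 70.2 and 59.8 SPM in Healthy mice 1 to 4. All Sick mice lay above all Healthy mice, and Sick mice 1 and 3 were the highest. Aldoa averaged 252 ± 70.6 SPM in Sick mice and 96.4 ± 36.9 SPM in Healthy mice (SD, n = 5 and 4), with a log2 difference of 1.41 ± 0.30 and limma adjusted p = 0.0610. The call turned with the processing, since 12 of 20 alternatives put Aldoa past the threshold, with adjusted p from 0.00988 to 0.715 over all of them. Leaving out the hemoglobin genes before scaling gave a limma adjusted p of 0.0288, with 3.05% of all genes past the threshold. Leaving out Healthy mouse 1, 2 or 4 or Sick mouse 6 gave 0.0336, 0.00988, 0.0419 and 0.0391, with 4.10%, 10.8%, 4.46% and 2.28% of all genes past it.

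Pkm in granulocytes stood at 186, 181, 98.4, 95.2 and 87.7 SPM in Sick mice and at 71.7, 36.6, 79.0 and 43.9 SPM in Healthy mice. The groups did not overlap, with Sick mice 4, 5 and 6 close to the highest Healthy mouse. The log2 difference was 1.14 ± 0.33 (limma adjusted p = 0.109), and it passed in 4 of 20 alternatives. Leaving out Healthy mouse 2 gave an adjusted p of 0.0498, and leaving out Healthy mouse 3 gave 0.0496, with 10.8% and 2.80% of all genes past the threshold. Per 1000000 of signal without hemoglobin the groups overlapped, at 122 to 203 in Sick mice against 64.3 to 133 in Healthy mice.

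Hk2 in granulocytes stood at 75.6, 64.8, 47.1, 41.0 and 42.4 SPM in Sick mice and at 33.1, 36.6, 8.78 and 0 SPM in Healthy mice. Again the groups did not overlap, but Sick mice 5 and 6 and Healthy mouse 2 were close. The mean was 54.2 ± 15.3 SPM in Sick mice and 19.6 ± 18.0 SPM in Healthy mice, and the log2 difference of 2.34 ± 0.90 (limma adjusted p = 0.177) passed in 2 of 20 alternatives. On the scale without hemoglobin, Hk2 ranged from 52.6 to 82.3 in Sick mice and from 0 to 64.4 in Healthy mice, so there too the groups overlapped. Aldoa on the same scale did not overlap, at 247 to 359 in Sick mice against 87.6 to 236 in Healthy mice. On the TMM scale a full separation was seen for these 3 of the 7 tested members, against 8.65% of all genes tested.

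Pgk1 did not pass the filter, yet it had signal in the granulocytes of every Sick mouse and of no Healthy mouse. Its level was 11.2, 8.59, 8.95, 8.65 and 4.68 SPM in Sick mice, from a summed signal of 219, and it was listed at 0 in all 4 Healthy mice. At the pooled level of Sick mice the Healthy granulocyte signal would hold 5.37 of Pgk1 signal, so the depth allows little to be read from the zeros. Pgam1 was at 0 in 2 and Gapdh in 1 of the 4 Healthy mice, with a summed Healthy signal of 3 for each.

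The transporters and the remaining enzymes in granulocytes gave wide intervals. Slc2a3 averaged 78.9 ± 15.9 SPM in Sick mice and 70.0 ± 36.8 SPM in Healthy mice, a log2 difference of 0.31 ± 0.36 (limma adjusted p = 0.606). Ldha averaged 96.9 ± 35.3 SPM in Sick mice and 61.2 ± 20.8 SPM in Healthy mice (0.64 ± 0.33, limma adjusted p = 0.272). Tpi1 differed by 0.30 ± 0.34 and Slc2a1 by 0.80 ± 0.86 (limma adjusted p = 0.592 and 0.579). None of these 4 separated the groups, and Slc2a3 ran from 33.1 to 105 SPM among Healthy mice alone.

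Other genes moved beside the granulocyte differences. The summed neutrophil markers stood at 322102, 331699, 108196, 86484 and 64554 SPM in the granulocytes of Sick mice 1, 3, 4, 5 and 6. Healthy mice 1 to 4 held 13834, 131670, 13934 and 17019 SPM, so only Healthy mouse 2, with 5 columns, lay in the Sick range. None of the 12 markers was at 0 in any mouse. The summed level of 7 osteoblast genes ran the other way, at 44.6 to 87.9 SPM in Sick mice and 126 to 411 SPM in Healthy mice (up to 4 of its genes at 0 in a Healthy mouse and 0 in a Sick mouse), as did that of 6 muscle genes, at 82.2 to 138 SPM in Sick mice and 178 to 285 SPM in Healthy mice. Erythroid genes took 7083 to 499208 SPM in Sick granulocytes and 215732 to 531292 SPM in Healthy ones. They took more than the neutrophil markers in every Healthy mouse and in Sick mice 4, 5 and 6. The part of these in the members' differences was not tested.

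**Figure D2:**
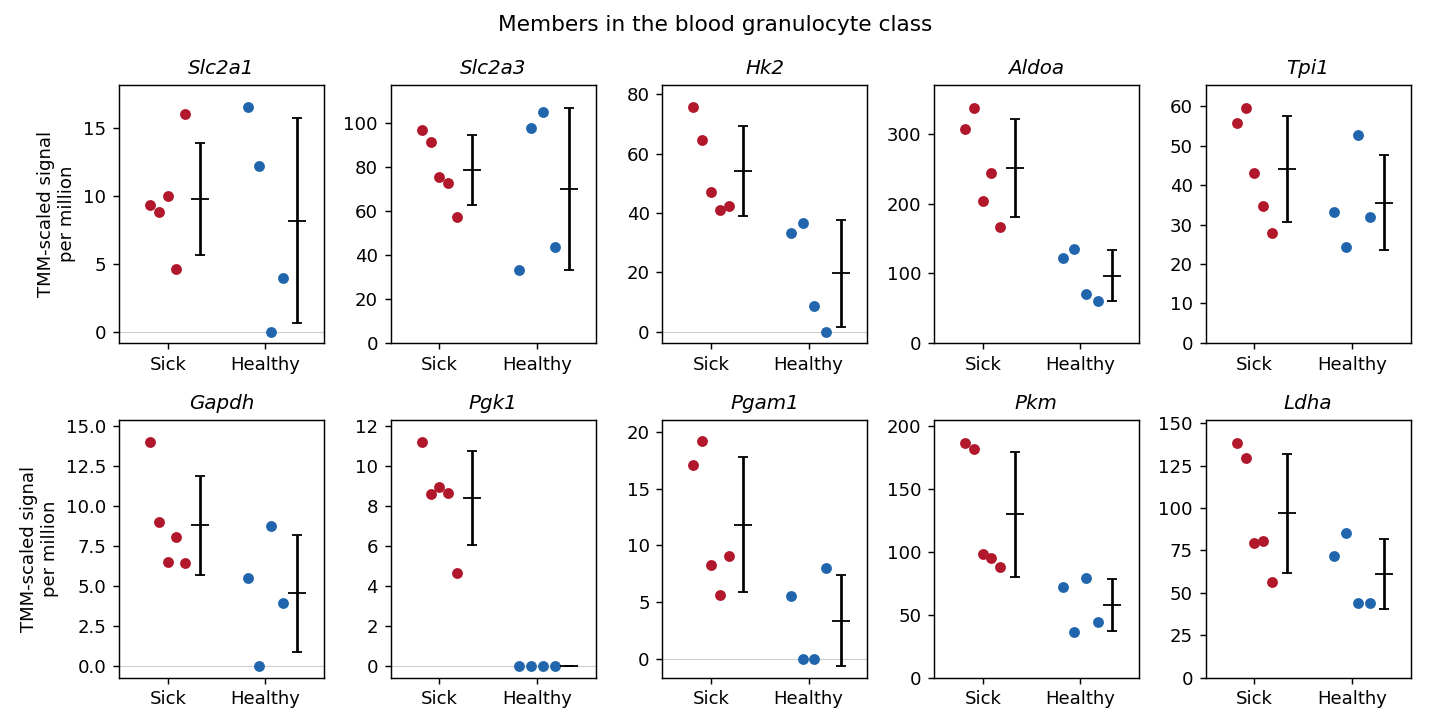
TMM-scaled SPM of each member in the granulocyte class, 1 point per mouse (5 Sick, red; 4 Healthy, blue), with mean ± SD as a black bar. Hk2, Aldoa, Pkm and Pgk1 show no overlap between the groups, and Pgk1 is at 0 in all 4 Healthy mice.

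In the B class, with 5 Sick mice and the 3 Healthy mice that had at least 5 columns, the members did not move one way. Of 7 tested members 0 passed, against 0% of the 9585 genes tested; 2 had an unadjusted p under 0.05, against 7.06% of all genes, and 4 were above 0, against 71.4%. Hk2 stood at 17.4, 21.6, 15.1, 18.6 and 19.8 SPM in Sick mice 1, 3, 4, 5 and 6 and at 7.01, 8.85 and 0 SPM in Healthy mice 1, 2 and 4, a log2 difference of 2.18 ± 0.88 (limma adjusted p = 0.519). No Healthy mouse reached 10 SPM of Hk2 here, so it passed the filter through Sick mice alone and its difference was favoured by that filter. Hk2 and Tpi1 separated the groups, against 3.38% of all genes tested, while Aldoa and Pkm lay at -0.03 ± 0.28 and -0.04 ± 0.41. Ldha was lower in sign, at 89.3 ± 23.8 SPM in Sick mice and 171 ± 76.4 SPM in Healthy mice (-0.88 ± 0.39, limma adjusted p = 0.519). Healthy mice 1 and 4 gave 9 and 15 B columns, and the Healthy zero of Hk2 comes from mouse 4.

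Whether granulocytes differed from B cells in their Sick minus Healthy difference was tested on the difference of each mouse's values in both classes. Of 7 members 0 passed, against 0% of the 7654 genes tested, and 3 had an unadjusted p under 0.05, against 10.3%. Those 3 were Aldoa at 1.46 ± 0.54, Pkm at 1.50 ± 0.62 and Ldha at 1.52 ± 0.64 on the log2 scale (limma adjusted p = 0.448, 0.473 and 0.476). The value for Hk2 was 0.22 ± 0.61, with a 95% interval from -1.17 to 1.62.

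**Figure D3:**
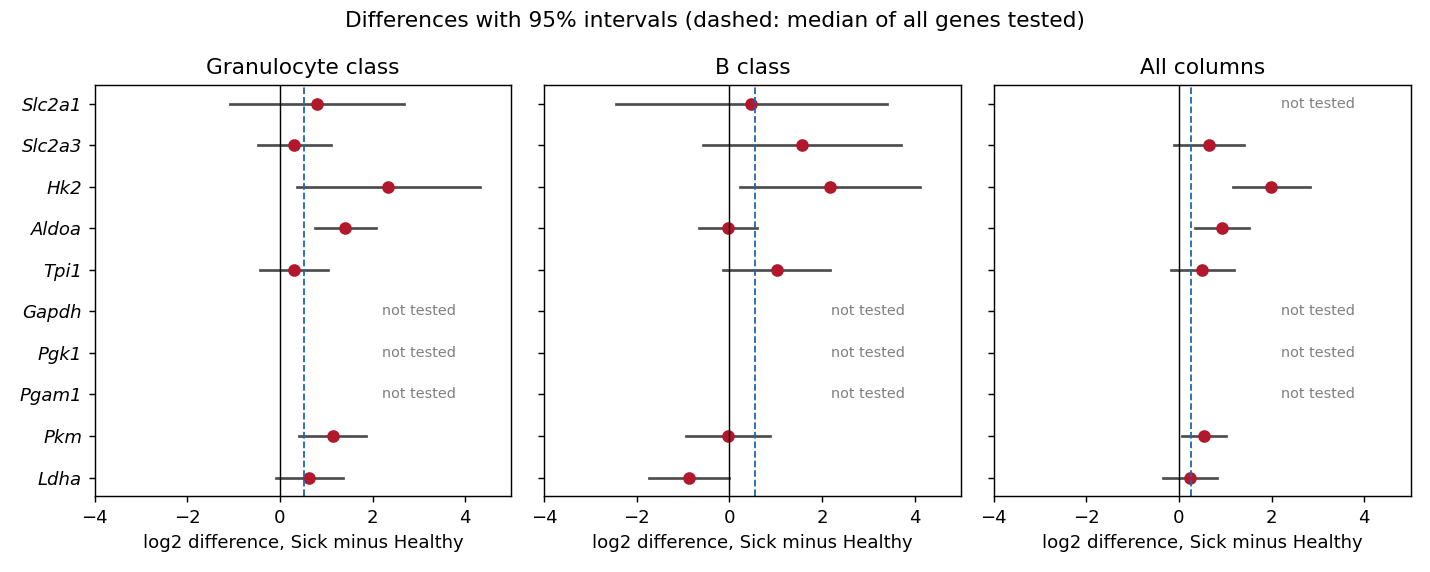
Log2 difference of each tested member, Sick minus Healthy, with its 95% interval, in the granulocyte class (5 and 4 mice), the B class (5 and 3 mice) and all columns (5 and 4 mice); the dashed line is the median of all genes tested. The interval of Hk2 lies above 0 in each panel and those of Aldoa and Pkm in granulocytes and all columns, that of Ldha in B cells lies below 0 (-1.74 to -0.0096), and no member passed the adjusted threshold.

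Which form of an enzyme or transporter supplied the signal did not separate the groups. Hk2 made up 38.5%, 40.1%, 43.6%, 31.7% and 53.3% of hexokinase signal (Hk1, Hk2 and Hk3) in Sick mice and 58.3%, 21.1%, 50.0% and 17.6% in Healthy mice, where that signal summed to 12, 76, 2 and 17. The means were 41.4 ± 7.91% in Sick mice and 36.8 ± 20.4% in Healthy mice (two-sided exact permutation p = 0.651, n = 5 and 4). Ldha, the subunit that favours lactate, took 87.4 ± 3.35% of Ldha plus Ldhb signal in Sick mice and 91.1 ± 8.78% in Healthy mice (exact permutation p = 0.365). Slc2a3 took 81.3 ± 10.5% of both transporters' signal in Sick mice and 72.4 ± 8.90% in Healthy mice (exact permutation p = 0.222). Adjusted over these 3 shares the p-values were 0.651, 0.548 and 0.548, and 0.0159 is the smallest p that 5 against 4 mice can give.

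Further genes of the same chemistry were read from 5 lists, and in no list did a gene pass in any of the 3 comparisons. In granulocytes Pfkfb4, Pdk3 and Pgm1 reached 10 SPM in no Healthy mouse, so they passed the filter on low values through Sick mice alone and had to differ; they stand in the counts and medians of their lists, and the same holds for Pdk3 over all columns. In granulocytes, 9 of 11 tested other glycolysis genes of 21 were above 0 with a median of 1.50, and 5 had an unadjusted p under 0.05. Enolase 1 (Eno1), which makes phosphoenolpyruvate, led them at 106 ± 35.8 SPM in Sick mice and 37.2 ± 14.0 SPM in Healthy mice (1.50 ± 0.33, limma adjusted p = 0.0657). Pfkfb4, which sets the level of the phosphofructokinase activator fructose 2,6-bisphosphate, stood at 14.6 ± 2.44 SPM in Sick mice and 2.19 ± 4.39 SPM in Healthy mice, a difference that the filter favoured. Phosphofructokinase P (Pfkp) came next, at 16.2 ± 4.44 SPM in Sick mice and 5.75 ± 6.65 SPM in Healthy mice (limma adjusted p = 0.188).

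The branches that leave glucose 6-phosphate were above 0 throughout in granulocytes under TMM, though not under every scaling: 6 of 7 pentose phosphate genes and 3 of 5 glycogen genes were above 0 after thinning. All 7 tested pentose phosphate genes of 7 were above 0, with a median of 1.25 and 6 at an unadjusted p under 0.05. Pgd, its second NADPH-making enzyme, stood at 108 ± 39.7 SPM in Sick mice and 42.9 ± 7.16 SPM in Healthy mice (limma adjusted p = 0.0710), and Tkt, a transketolase, at 303 ± 135 SPM in Sick mice and 105 ± 38.9 SPM in Healthy mice (limma adjusted p = 0.0861). G6pdx, the entry enzyme, stood at 83.9 ± 40.7 SPM in Sick mice and 24.6 ± 24.5 SPM in Healthy mice (limma adjusted p = 0.0983). All 6 tested glycogen genes of 10 were above 0, with a median of 2.22 and 5 at an unadjusted p under 0.05. Glycogen phosphorylase L (Pygl), which frees glucose 1-phosphate, stood at 169 ± 63.8 SPM in Sick mice and 42.0 ± 26.8 SPM in Healthy mice (2.23 ± 0.53, limma adjusted p = 0.0747), with Gbe1 at 2.35 ± 0.90 (limma adjusted p = 0.174). Pgm1, which the filter favoured, stood at 11.3 ± 4.03 SPM in Sick mice and 2.38 ± 2.81 SPM in Healthy mice. For Gbe1 only 1 Healthy mouse reached 10 SPM, and the 4 Sick mice that did so carried it through the filter.

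Lactate and pyruvate genes were less uniform, with 6 of 8 tested of 12 above 0 and a median of 0.58 (4 of 8 and 0.05 after thinning). Slc16a3 (MCT4, the lactate exporter) stood at 59.6 ± 8.40 SPM in Sick granulocytes and 24.4 ± 7.99 SPM in Healthy ones (1.30 ± 0.29, limma adjusted p = 0.0683), and Pdk3, which inhibits pyruvate dehydrogenase, at 17.2 ± 4.24 SPM in Sick mice and 2.38 ± 2.81 SPM in Healthy mice, where the filter favoured the difference. Mpc2, a subunit of the mitochondrial pyruvate carrier, differed by 0.84 ± 0.31 (limma adjusted p = 0.169). Of the HIF-1 list 11 of 13 tested of 18 were above 0, with a median of 0.81 (6 of 13 and -0.23 after thinning), and 1 had an unadjusted p under 0.05. P4ha1, a collagen prolyl hydroxylase subunit and HIF-1 target, had the smallest p (2.18 ± 0.87, limma adjusted p = 0.187), ahead of Egln2 and Bhlhe40 (limma adjusted p = 0.252 and 0.283). These medians and counts stand beside a median of 0.53 and 77.3% above 0 for all genes tested in granulocytes. Of those genes, 21.6% had an unadjusted p under 0.05.

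Over all columns and in B cells the same lists stood beside medians of 0.26 and 0.56 for all genes tested, of which 69.3% and 71.4% were above 0. Over all columns 6 of 9 other glycolysis genes, 8 of 9 lactate and pyruvate genes, 7 of 7 pentose phosphate genes and 12 of 14 HIF-1 genes were above 0, with medians of 0.75, 0.13, 0.77 and 0.54. All 5 of 5 tested glycogen genes were above 0 too, and their median was above those of the other 4 lists. After thinning, 4 of 8 other glycolysis, 4 of 8 lactate and pyruvate and 6 of 7 pentose phosphate genes were above 0. So were 4 of 4 glycogen and 8 of 14 HIF-1 genes, against 54.4% of all genes. Pygl had the smallest p, with 88.0 ± 40.8 SPM in Sick mice and 15.1 ± 11.0 SPM in Healthy mice (2.61 ± 0.54, limma adjusted p = 0.108). Tkt, G6pdx, Eno1, Hk1, Hk3, Slc16a3, Mpc2, Pgd, Gys1, Egln2, Ero1l and Bnip3 followed with limma adjusted p from 0.172 to 0.432. Pdk3, which the filter favoured, stood at 12.4 ± 2.00 SPM in Sick mice and 3.17 ± 2.58 SPM in Healthy mice. In B cells, in the order other glycolysis, lactate and pyruvate, pentose phosphate, glycogen and HIF-1, the 5 medians were 0.07, 0.38, 0.77, 0.40 and 0.68, and 6 of 9, 4 of 7, 6 of 7, 1 of 2 and 13 of 13 genes were above 0. Thinning changed these counts to 4 of 9, 6 of 8, 4 of 7, 2 of 3 and 9 of 12, against 65.4% of all genes.

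The blood classes were compared within Sick mice, on the untrimmed scale of signal per 1000000 of the class total. By median, Slc2a3, Hk2, Aldoa, Pkm and Pgam1 were highest in granulocytes. Classes were called by the submitters from these same columns, so levels between them are a description with no test. Slc2a3 stood at 105, 97.1, 67.9, 45.1 and 79.2 SPM in the granulocytes of Sick mice 1, 3, 4, 5 and 6. In every Sick mouse it was higher there than in each of the B, CD4 T, foxP3 T, common myeloid progenitor and myeloid dendritic classes that the mouse had, and the highest value in any of them was 44.5 SPM, in a dendritic class. Hk2 stood at 81.7, 68.6, 42.4, 25.4 and 58.6 SPM in the same granulocytes and at 13.5 to 24.2 SPM in B cells, and it was higher in granulocytes in every mouse against 4 classes, and in 3 of 4 mice against the dendritic class, which held 34.1 to 56.2 SPM. In the order of medians Hk2 ran from granulocytes (58.6) over dendritic cells (42.0), B cells (20.4), progenitors (11.1) and CD4 T cells (9.85) to the foxP3 class (8.08 SPM), and the ranges of the last 3 overlapped.

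The other enzymes ranked the classes in another order. Aldoa in Sick granulocytes ranged from 151 to 357 SPM and was higher than in B cells in 4 of 5 mice and higher than in progenitors in 4 of 4, and Pkm was higher than in B cells in 4 of 5 and than in dendritic cells in 4 of 4. Tpi1 was highest in common myeloid progenitors, with a median of 70.9 SPM against 38.7 SPM in granulocytes, and was lower in granulocytes in 4 of 4 mice. Ldha had medians of 172 SPM in progenitors, 109 SPM in CD4 T cells and 103 SPM in dendritic cells. Its medians were 89.0 SPM in B cells, 77.9 SPM in granulocytes and 46.3 SPM in the foxP3 class, and the ranges overlapped. Slc2a1 was lowest in progenitors, at a median of 1.18 SPM, and had medians of 9.34 SPM in granulocytes and 14.2 SPM in B cells. Hemoglobin took a median of 13.3% of the signal in progenitors and 7.21% in granulocytes of Sick mice, with ranges of 2.46% to 43.0% and 0.704% to 51.6%, which lowers every other gene on this scale.

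The joint table, whose columns match none of the blood samples and were pooled by class without a test, gave granulocyte levels near those of blood. Joint columns were pooled over all mouse names (9 in the granulocyte class) with no split into Healthy and Sick, and so were the blood columns set beside them. Joint granulocytes (6487 columns) held 72.6 SPM of Slc2a3, 48.0 of Hk2 and 257 of Aldoa, against 75.6, 51.9 and 239 SPM in blood granulocytes (1905 columns). Of these, 968 joint and 523 blood columns were identical to a column of the other table. Without them the levels were 70.1, 47.6 and 262 SPM in the joint and 72.1, 52.1 and 243 SPM in blood.

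A small joint class labelled as macrophages after LPS, in which 6 of 6 macrophage markers were highest, held the top level of most of the enzymes. Among joint classes, 5 of 6 monocyte and 4 of 6 dendritic markers were highest in it too, so its markers are not those of macrophages alone. Hk2 reached 271 SPM there and had signal in 97.0% of columns, against 44.7% of joint granulocyte columns. Aldoa reached 715 SPM, Ldha 315 SPM, Pkm 219 SPM and Tpi1 101 SPM, each above the other 12 classes of either tissue. Slc2a1 and Gapdh had no signal in that class, and Slc2a3 stood at 19.0 SPM. The class has 67 columns, of which 40 are distinct and 52 carry the name of 1 mouse, so these values rest on few distinct columns. The joint osteoblast class, with 7 of 7 osteoblast markers highest, had the highest Slc2a1 level, 41.4 SPM, with 35.0 SPM of Hk2 and 15.9 SPM of Slc2a3, from 58 columns of which 18 are distinct.

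**Figure D4:**
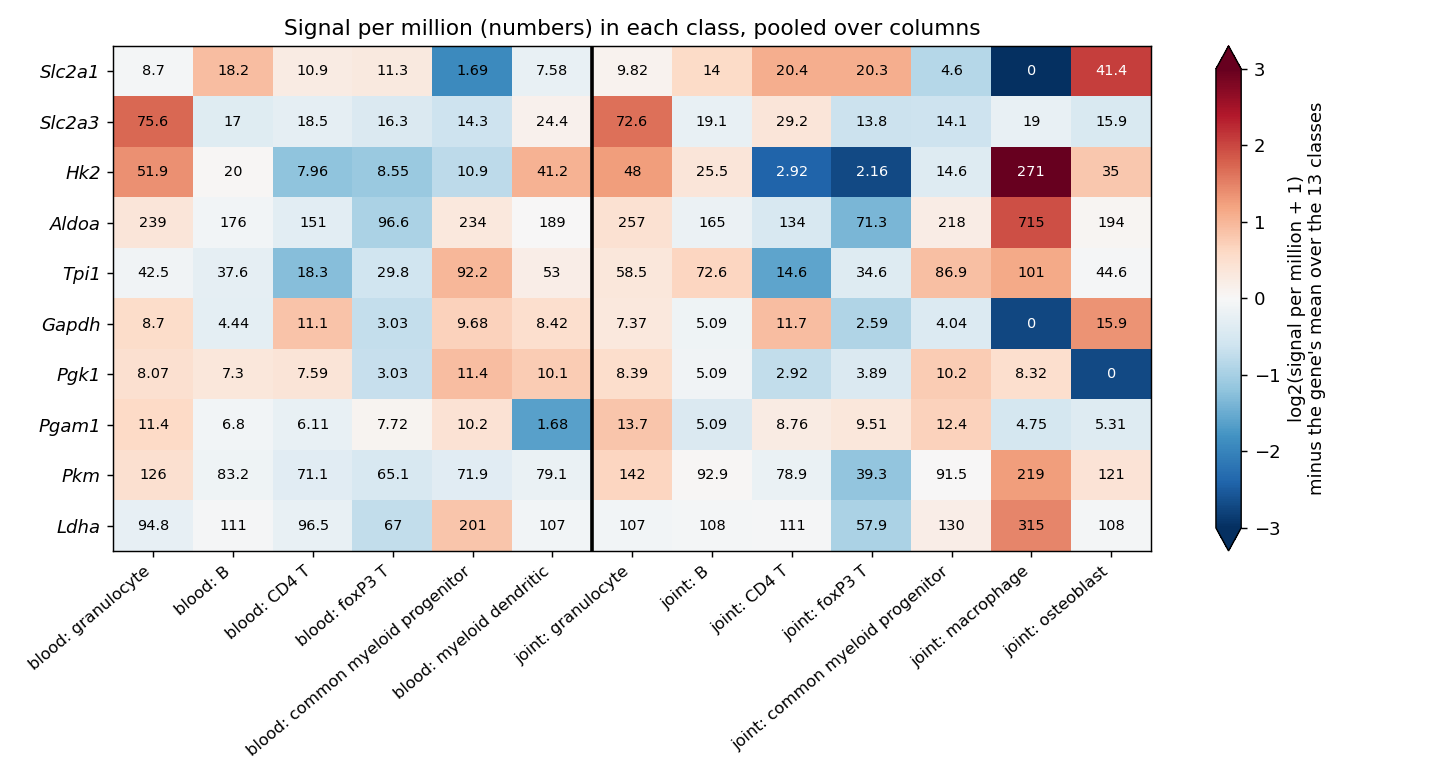
SPM of each member (numbers) in 6 blood and 7 joint classes, pooled over columns; the colour is log2(SPM + 1) minus the gene's mean over these classes, with values beyond 3 shown at the end of the scale. Slc2a3 is highest in granulocytes of both tissues (75.6 and 72.6), and Hk2, Aldoa, Pkm and Ldha in the joint macrophage class.

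Granulocytes also differed among themselves. The granulocyte columns of each Sick mouse were ranked by the share of signal from 8 granule and maturation genes (Ltf, Camp, Ngp, Lcn2, Cd177, Chil3, Ltb4r1 and Mmp8), several of which are made mainly in younger neutrophils, and divided into 3 parts of like size. In the middle part that share was 7.66%, 7.79%, 0.824%, 1.14% and 0.133% in Sick mice 1, 3, 4, 5 and 6. In the lowest part of Sick mice 1 and 3 it was 1.64% and 1.45%, so parts of the same name do not match across mice. Slc2a3 stood at 60.0, 58.1, 23.8, 25.3 and 65.9 SPM in the lowest part and at 110, 90.3, 115, 69.2 and 122 SPM in the highest part of Sick mice 1, 3, 4, 5 and 6. It was thus lower in the lowest part in 5 of 5 mice, with a median log2 difference, lowest minus highest, of -0.88. The middle part, at 139, 139, 55.7, 39.8 and 38.3 SPM, did not lie between them throughout: it was the highest of the 3 in Sick mice 1 and 3 and the lowest in Sick mouse 6. Pkm was lower there in 5 of 5 mice too (-0.34), as was Ldha (-0.73), although Ldha in Sick mouse 1 was the same to within rounding at 147 SPM in both. The middle part was the lowest of the 3 in 3 of 5 mice for Pkm and for Ldha. Hk2 was higher in the lowest part in 1 of 5 mice (-0.24) and Aldoa in 2 of 5 (-0.27), while Tpi1 and Slc2a1 were higher in 3 of 5. Hemoglobin took 38.0% of the lowest and 24.6% of the highest part in Sick mouse 4, and 57.1% and 40.7% in Sick mouse 5. Without hemoglobin in the total, Slc2a3 was still lower in the lowest part of every Sick mouse, at 38.3 against 152 SPM in Sick mouse 4 and 59.0 against 117 SPM in Sick mouse 5. Pkm was lower there in every Sick mouse too, but close in Sick mouse 4, at 140 against 142 SPM. Ldha was not lower there in Sick mouse 1, at 148 SPM in both parts, and was lower in the other Sick mice.

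**Figure D5:**
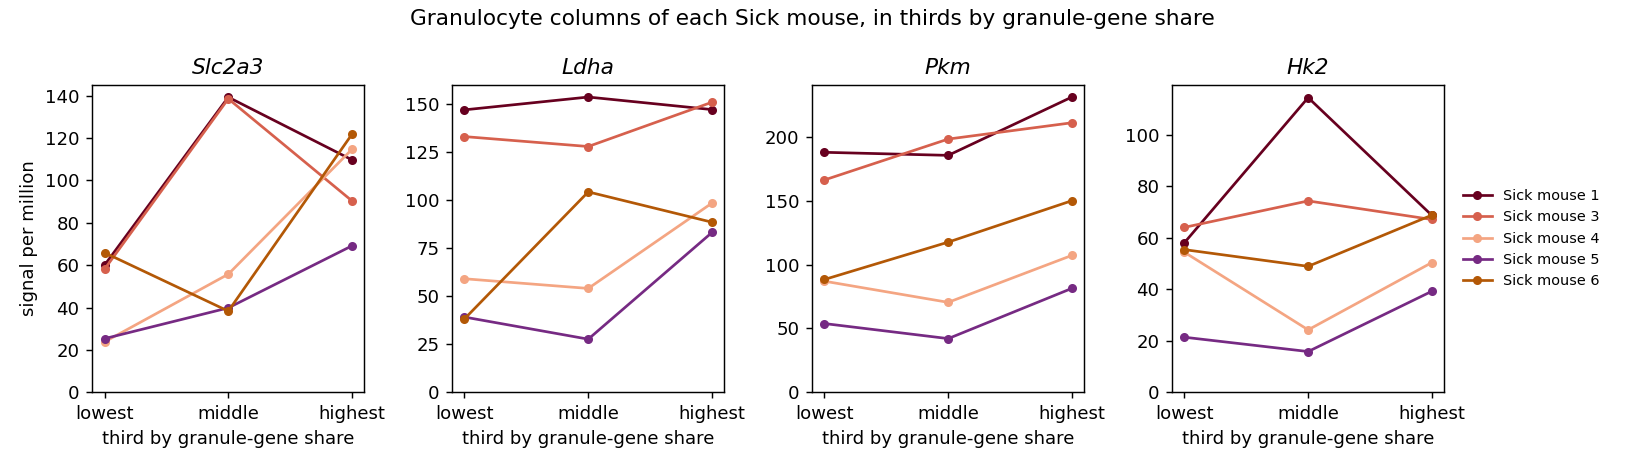
SPM of Slc2a3, Ldha, Pkm and Hk2 in 3 parts of the granulocyte columns of each of the 5 Sick mice, from the lowest to the highest share of 8 granule and maturation genes, 1 line per mouse. Slc2a3 is lower in the lowest than in the highest part in all 5 mice, with the middle part between them in 2.

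Across 38 combinations of a mouse and a class with enough columns, 5277 genes were ranked by Pearson's r with the mean of the 10 members and with Hk2, as a description only, since these units share libraries, depth and hemoglobin content. Closest to the member mean were Pfn1 (r = 0.85), Aprt (0.84), Triobp (0.83), Actb (0.81) and Gnai2 (0.80). Closest to Hk2 were Gsn (0.78), Jun (0.77), App (0.76), Lmo4 (0.73) and Rab32 (0.73). Among the members themselves Pkm (0.86) and Aldoa (0.85) lay closest to the mean and Slc2a1 (0.21) farthest, and Hk2 ran closest to Slc2a3 (0.48) and not at all with Slc2a1 (-0.01).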

How the data were processed

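Per the labels' protocols, Seq-Well libraries from polyA RNA were read from the polyA tail and processed by the Drop-seq core protocol on GRCm38.p5. For the aligner, the cell filter and the calling of classes, the method is not given in the sources used here. What the authors deposited is signal, as whole numbers for each gene in each column with no scaling. These values were not treated as counts because many columns are identical, so the planned count test gave way to limma. Of the joint columns, 43 were not used.

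Signal was summed per mouse (at least 5 columns per mouse in a class), TMM-scaled (trims of 30% and 5%), and log2-transformed with a pseudocount of 1. The limma test (version 3.58.1) took genes that reached 10 SPM in no fewer mice than the smaller group has (trend, R 4.3.3), with Benjamini-Hochberg adjustment over all of them and a threshold of 0.05. For shares an exact permutation test, two-sided, was used. The fits were tested on simulated data. Python 3.11.15 with pandas 2.3.3 did the rest. Totals per mouse ranged from 330950 to 13557201; columns overlap in content, so no counting intervals are given. Mice are the replicates. The named genes are all members, the leading genes of 5 lists (up to 3 by p, over all columns and in granulocytes) and the 5 genes most like the member mean and Hk2. Of the genes this rule names, 1 is not reported here. Members and lists were chosen with earlier results of these data known. Leaving out Healthy mouse 2 in granulocytes is the same fit as a minimum of 10 columns. Alternatives changed the scaling, pseudocount, filter, weights, columns, genes or mice used.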

Additional observations from a re-analysis of the deposited data

How the results depend on the processing

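Healthy granulocyte values rest on 5 to 20 columns per mouse. Over all columns 0 members passed, against 1 (Hk2) with hemoglobin share as a covariate (0.863% of all genes passed there, against 0.0473%) and 0 to 1 when each mouse was left out in turn. In granulocytes 0 passed, against 1 with a pseudocount of 5 or identical columns removed (Aldoa both times), 2 with no filter or without hemoglobin genes (Aldoa and Pgk1), 2 with array weights (Hk2 and Aldoa), 2 with at least 10 columns per mouse (Aldoa and Pkm), 3 (Hk2, Aldoa and Ldha) with columns identical to a joint column removed, an alternative chosen after seeing the data, and 0 to 2 when each mouse was left out in turn. Pgk1 was at 0 in all 4 Healthy mice, so it entered both of its fits through Sick mice alone and its difference was favoured by that. All genes past the threshold made up 2.21% with a pseudocount of 5, 12.9% with no filter, 3.05% without hemoglobin genes, 3.57% with array weights and 10.8% with at least 10 columns, against 0.655%. Removing either set of identical columns left 3 Healthy mice in granulocytes, and the share was then 5.78% and 15.3%. For granulocytes against B cells the count was 1 with array weights (Slc2a1, -3.76) and 1 with identical columns removed (Hk2, -3.99), which left 1 Healthy mouse, with 6.90% and 12.4% of all genes past the threshold, against 0%. Mouse numbers name different animals: same-numbered deviations correlated at 0.00, -0.29 and 0.30 over all columns and 0.01, -0.06 and 0.18 in granulocytes, so the numbers do not pair mice; with the number as a replicate block, over 3 and 3 mice, 0 members passed over all columns, 2 in granulocytes (Aldoa and Pkm, with 2.43% of all genes past the threshold) and 0 in B cells and in the difference between classes.

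Directions of members that did not pass turned as follows, on the log2 scale, and the cause was not tested. Thinning each mouse to the smallest total turned Ldha over all columns (-0.0050), Slc2a1 (-1.39), Slc2a3 (-1.38) and Tpi1 (-1.73) in granulocytes, Tpi1 in B cells (-0.39), and Slc2a3 (0.23) and Hk2 (-0.54) between classes. In B cells, where Aldoa and Pkm lay near 0, Aldoa came to 0.14, 0.16, 0.44 and 0.088 and Pkm to 0.13, 0.46, 0.59 and 0.080 with scaling by the total, array weights, identical columns removed and hemoglobin genes left out, and Pkm to 0.19 under the replicate block. Between classes Hk2 came to -0.13 and -0.12 with scaling by the total and array weights, Slc2a3 to 1.21 and 1.78 with array weights and identical columns removed, and Pkm to -0.53 with identical columns removed. Leaving out each mouse in turn gave -0.13 to 0.14 for Aldoa, -0.30 to 0.34 for Pkm and -0.71 to 1.40 for Slc2a1 in B cells, and -0.51 to 0.53 for Hk2, -1.49 to 1.14 for Slc2a1 and -1.91 to 0.20 for Slc2a3 between classes; the Hk2 share difference of 4.66 percentage points ranged from -1.71 to 11.9. That share difference became -0.18 without columns shared with the joint.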
